A study of Mus musculus with 18 samples.

Results

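ER+ luminal cells of the mouse mammary gland at mid pregnancy were set against ER+ luminal cells at puberty, with 2 RNA-seq libraries per stage. All genes with a deposited value of 10 or more in at least 2 of these 4 libraries were kept, which gave 18509 of the 46257 genes in the table. Of these, 15117 reached that value in all 4 libraries, 700 only in the pregnancy libraries, 293 only in the puberty libraries and 2399 in other combinations. At the edge of the rule, 1713 genes that were kept reached it in exactly 2 libraries, and 1948 genes that reached it in exactly 1 were left out.

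The series holds 18 libraries in 9 groups, made from ER+ luminal, ER- luminal and basal cells that were sorted from the gland at puberty, in adulthood or at mid pregnancy. The basal libraries of puberty and pregnancy are basal by title, but their cell type entry calls them BC luminal cells. Mice of all groups, both compared here included, had the genotype ERrtTA/TetOCre/rosaYFP, a tetracycline-controlled Cre recombinase with a fluorescent reporter. The sequence that drives rtTA, the sorting gates, any doxycycline treatment, mouse ages and the animals pooled per library could not be taken from the labels.

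ER+ luminal cells are the hormone-sensing cells of the duct. They carry the receptors for estrogen, progesterone and prolactin and relay these signals to their neighbours through secreted ligands such as amphiregulin in the growing ducts of puberty and RANKL, the product of Tnfsf11, in the alveolar growth of pregnancy. Milk proteins are made chiefly by alveolar cells that derive from ER- luminal cells, under the control of prolactin and its transcription factor STAT5.

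The deposited values are whole numbers with a total near 20000000 in every library and were read as reads scaled to a common total, called scaled counts below. Neither the scaling nor the rounding is stated in the labels. Reads inferred from the steps between low values returned at least 99.7% of the values of each library exactly, with rounding up assumed, but most libraries missed a stricter test for whole steps, and all read numbers and counting intervals given here rest on that inference. The inferred depth was 6363552 and 6146617 reads in pregnancy replicates 1 and 2 and 10407908 and 7674870 reads in puberty replicates 1 and 2, so that 1 read is worth 3.12, 3.23, 1.91 and 2.59 scaled counts in turn. The labels do not say that the 2 libraries of a group came from separate mice, and the p-values therefore measure only the spread between these libraries, which may be technical. Among the libraries that serve for comparison, pregnancy ER- replicate 2 stood apart, with 0.62% of its scaled counts from mitochondrial genes, against 1.88% to 7.07% in the other 17.

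The ER+ label was checked against marker genes. Esr1, the estrogen receptor alpha gene, stood at 5666 and 2096 scaled counts in the pregnancy ER+ libraries and at 18278 and 24264 in the puberty ER+ libraries, against 406 to 751 in the pregnancy ER- and basal libraries. The sum of 16 ER+ luminal markers was 97402 and 40911 in pregnancy ER+ cells, 188049 and 238880 in puberty ER+ cells, and 7372 to 9295 in the other pregnancy cells. Both ER+ groups thus lay above the other cells of their stage, and the pregnancy ER+ libraries below the puberty ones. Of these 16 markers 1 was higher at pregnancy by the test given below (Tnfsf11) and 6 were lower, with 2 lower without pregnancy replicate 2 or puberty replicate 2 and 4 without puberty replicate 1. The sum of 14 ER- luminal markers ran the other way, at 64500 and 148398 in pregnancy ER+ cells against 36333 and 27234 in puberty ER+ cells. Pregnancy ER- cells themselves held 158083 and 75638, so that pregnancy ER+ replicate 2 lay between them. The sum of 18 basal markers was 53947 and 41662 against 22412 and 9508, while basal cells themselves held 367052 to 444488. Pregnancy replicate 1 had the higher ER+ sum and pregnancy replicate 2 the higher ER- sum. In RNA from many cells together, a change in the share of a cell type and a change in RNA per cell cannot be told apart. The part of these marker shifts in the results that follow was not tested.

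**Figure D1:**
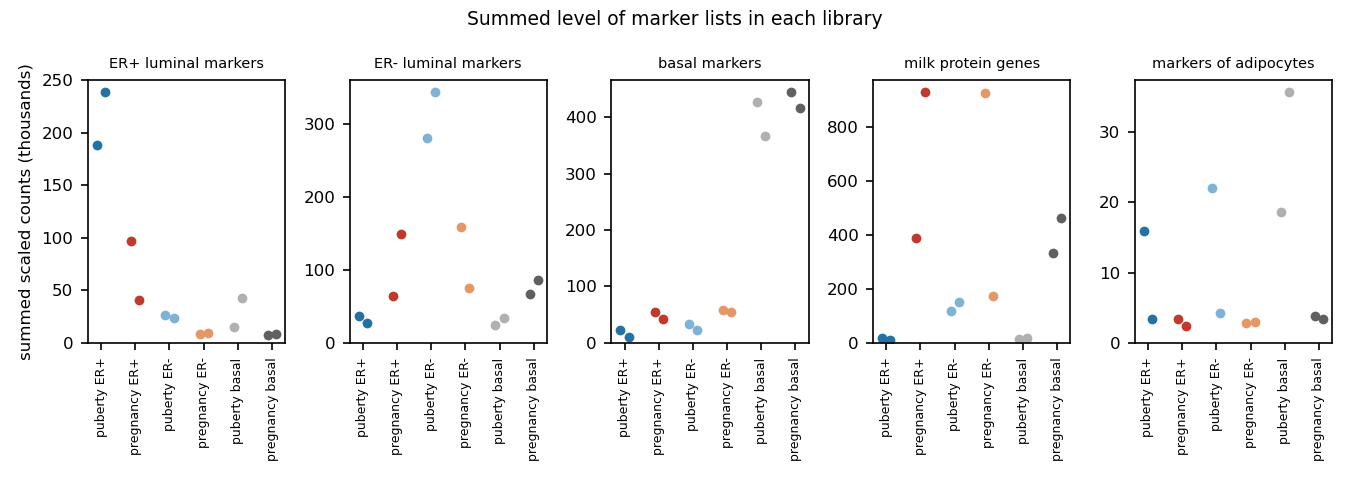
Summed scaled counts, in units of 1000, of 5 marker lists in each library of the 3 populations at puberty and pregnancy, 1 point per library, with a separate vertical scale in each panel. In ER+ cells the ER+ marker sum is lower at pregnancy (97402 and 40911) than at puberty (188049 and 238880), and the milk protein sum is higher (387823 and 929279 against 16939 and 12057).

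Between the stages, 2864 of 18509 genes (15.5%) passed the test in ER+ cells, limma on log2(scaled count + 1) with Benjamini-Hochberg adjustment over 22315 genes. Of these, 1603 were higher at pregnancy (8.66% of the genes kept) and 1261 were lower (6.81%). Among the called genes the median size of change was 1.59 on the log2 scale, 227 rose by more than 16-fold and 106 fell by more than 16-fold. The median over all genes kept was 0.12, which became -0.03 after quantile normalization, and changes of lists are given beside it. Of the higher genes, 1284 reached 10 scaled counts in all 4 libraries and 210 only at pregnancy. Of the lower genes, 1153 reached it in all 4 and 73 only at puberty. The count of calls depended on the libraries and was 1381 without pregnancy replicate 2, 1346 without puberty replicate 2 and 1431 in a fit of the 4 libraries alone. A fit with 1 library in a group assumes that it varies like the other groups. Without all 6 adult libraries the count was 3622. Under TMM factors 1485 were higher and 1705 lower, and after quantile normalization 1517 and 1670, so that the excess of rises depended on scaling.

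**Figure D2:**
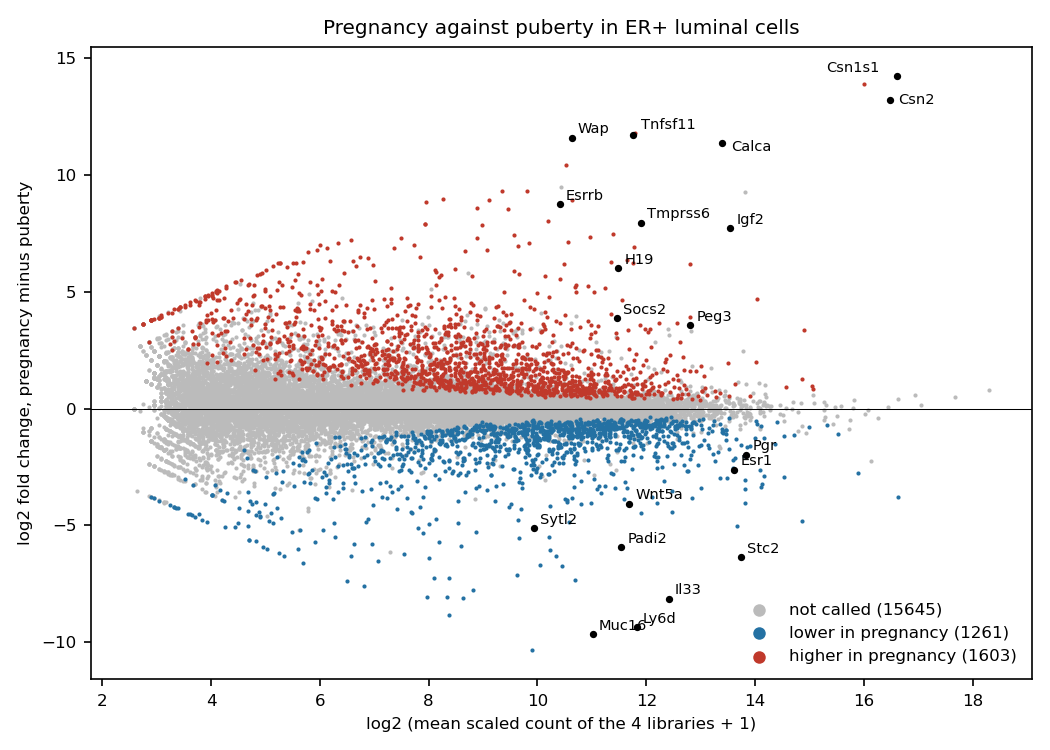
Each point is 1 of the 18509 genes kept, with the log2 of its mean scaled count over the 4 ER+ libraries plus 1 on the horizontal axis and the log2 fold change, pregnancy minus puberty, on the vertical axis. The 1603 genes called higher are red, the 1261 called lower are blue, and black points are named genes, with Csn1s1 (14.24) near the top and Muc16 (-9.64) near the bottom.

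The ligands of hormone-sensing cells split by stage. Of 26 such genes on the list, 23 were kept, 9 were higher at pregnancy and 5 lower, with a median change of -0.17, and 4 of the 23 reached 10 scaled counts in 1 stage only. Tnfsf11 (ENSMUSG00000022015 in the table, chr14:78277445-78308043 on the minus strand of GRCm38) encodes RANKL, the progesterone-driven signal to neighbouring cells. It stood at 8763 and 5044 scaled counts in pregnancy ER+ cells and at 0 and 3 in puberty ER+ cells. Nearly all of its reads thus came from pregnancy libraries, 4372 reads against 1, a depth-adjusted ratio of 6319 with an exact 95% counting interval of 1134 to 249663. Its fitted log2 change was 11.70 (SE 2.13, adjusted p = 0.0047). Such intervals, and the bounds given below for genes with no reads in a stage, cover counting error only, because reads that carry no molecular identifier can be copies of 1 molecule.

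Calca encodes calcitonin and the peptide CGRP. Its level was 28214 and 14970 scaled counts at pregnancy and 4 and 11 at puberty, with no overlap and a log2 change of 11.37 (SE 1.94, adjusted p = 0.00326). Rspo1, an R-spondin that amplifies WNT signals, had 1260 and 3414 against 8 and 6 (log2 change 8.03, SE 1.18, adjusted p = 0.00127). In pregnancy ER- cells Rspo1 stood at 4213 and 4844, above both ER+ libraries, whereas Tnfsf11 stood there at 286 and 233 and Calca at 731 and 609. Igf2, the insulin-like growth factor active in the fetus, had 34700 and 12642 against 496 and 19 (log2 change 7.71, SE 1.47, adjusted p = 0.00633). The puberty values of Igf2 differed widely from each other, and its call was lost in the fit of the 4 libraries alone (adjusted p = 0.0541, with 6.09e-06 to 0.0541 over all alternatives).

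Ligands of the opposite sense were led by Wnt5a, a WNT protein that signals outside the beta-catenin route. It stood at 490 and 272 scaled counts at pregnancy and 5611 and 6743 at puberty, and fell by 4.07 on the log2 scale (SE 0.37, adjusted p = 1.67e-05). Inhbb, a subunit of inhibin and activin, had 618 and 485 against 5648 and 6050 and fell by 3.41 (SE 0.46, adjusted p = 0.000472). Fgf1, a fibroblast growth factor, fell by 1.95 (SE 0.23) and Hbegf, a ligand of the EGF receptor, by 1.91 (SE 0.27). In each of these genes the pregnancy libraries lay below the puberty libraries. Areg, the amphiregulin gene, had 7671 and 2790 at pregnancy and 8765 and 10309 at puberty, which did not pass (log2 change -1.04, SE 0.79, adjusted p = 0.479). Wnt4, a progesterone target, had 7596 and 3578 against 5013 and 6823, so that the stages overlapped (log2 change -0.17, SE 0.64, adjusted p = 0.924).

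**Figure D3:**
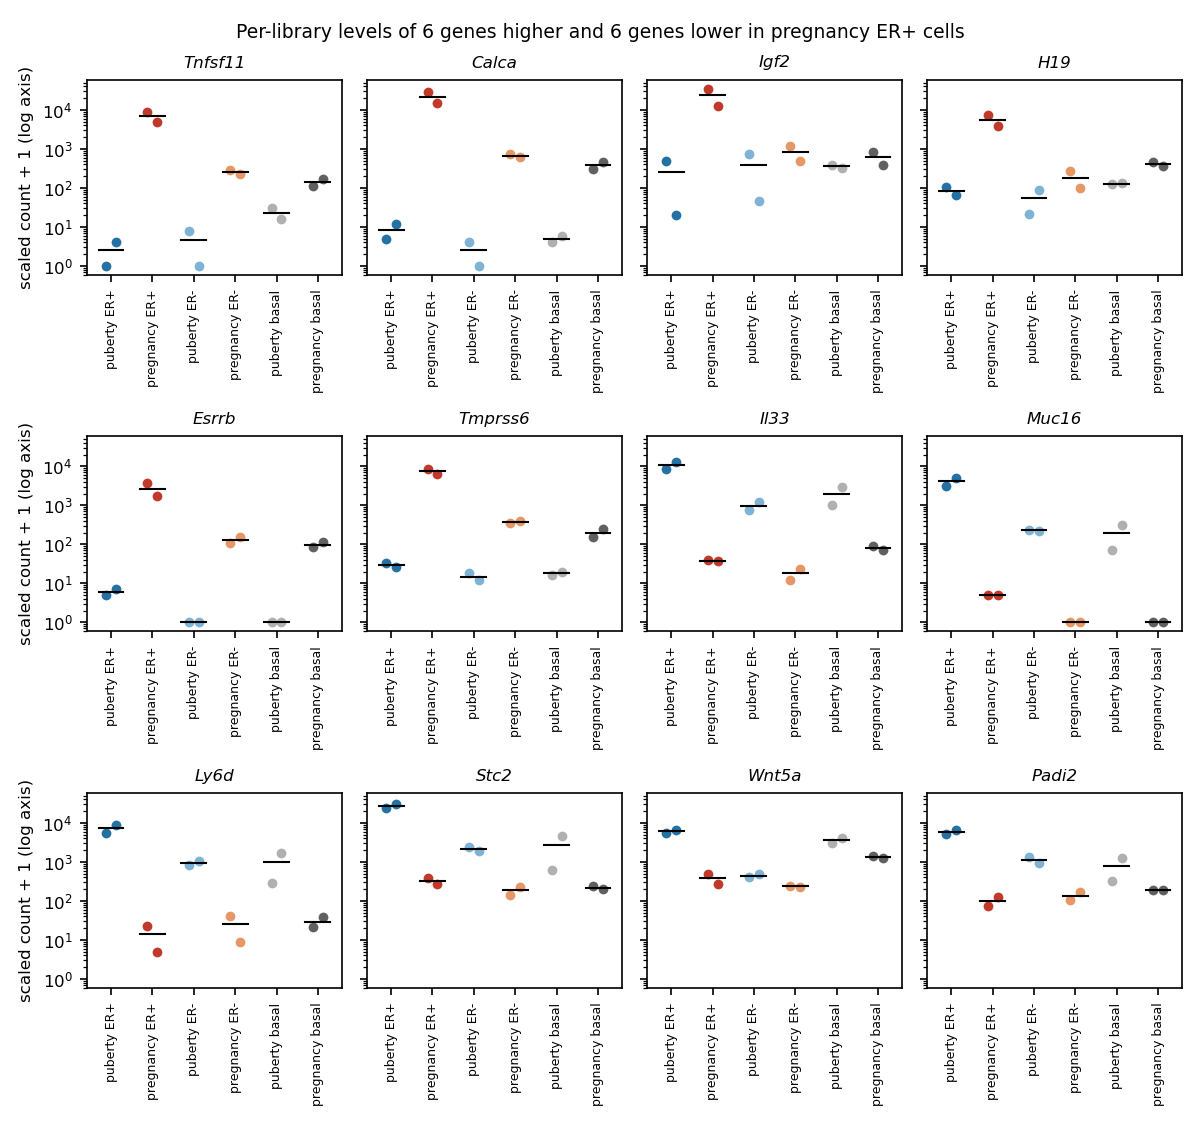
Scaled counts plus 1 (log axis) of 12 genes in each library of ER+, ER- and basal cells at puberty and pregnancy, with 1 point per library and a bar at the mean of the 2 scaled counts plus 1. Tnfsf11, Calca, Igf2, H19, Esrrb and Tmprss6 are highest in the pregnancy ER+ libraries, and in ER+ cells Il33, Muc16, Ly6d, Stc2, Wnt5a and Padi2 are lower at pregnancy than at puberty.

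Among steroid hormone receptors and their coregulators, 23 of 24 genes were kept, with 5 higher, 6 lower and a median change of -0.20. Esr1 (values above) fell by 2.61 on the log2 scale (SE 0.62, adjusted p = 0.0187), with no overlap between the stages. That call was lost without pregnancy replicate 2 (adjusted p = 0.16), puberty replicate 1 (0.0512) or puberty replicate 2 (0.123), within a range of 3.26e-05 to 0.16 over all alternatives. Pgr, the progesterone receptor, had 8900 and 3694 scaled counts at pregnancy and 18388 and 27548 at puberty (log2 change -1.97, SE 0.68, adjusted p = 0.0911). Foxa1, the pioneer factor of estrogen receptor binding, had 7646 and 3239 against 12566 and 18132 (log2 change -1.60, SE 0.72, adjusted p = 0.196). Pgr and Foxa1 did not overlap between the stages but did not pass the test, and 23.5% of all genes kept lay below in the same way. The mineralocorticoid receptor gene Nr3c2 had 393 and 391 against 2133 and 2036 and fell by 2.41 (SE 0.27, adjusted p = 4.05e-05). Nrip1, a corepressor that estrogen receptors recruit, had 5114 and 5787 against 18342 and 17643 and fell by 1.73 (SE 0.26, adjusted p = 0.000574).

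The called rises of the receptor list included Tfap2c and Xbp1. Tfap2c, an AP-2 transcription factor, had 1064 and 1760 scaled counts at pregnancy and 361 and 264 at puberty (log2 change 2.14, SE 0.24, adjusted p = 3.74e-05). Xbp1, a transcription factor of the secretory pathway, had 8055 and 9016 against 3648 and 3753 (log2 change 1.20, SE 0.20, adjusted p = 0.000743). Fkbp5, a chaperone partner of the progesterone and glucocorticoid receptors and a classical target of both, had 4073 and 3204 against 418 and 383, and 468 to 1303 in the other pregnancy cells. Its log2 change was 3.17 (SE 0.67, adjusted p = 0.00999). The Fkbp5 call was lost without pregnancy replicate 1 (adjusted p = 0.0571), pregnancy replicate 2 (0.0509) or puberty replicate 2 (0.0677), with 8.96e-08 to 0.0677 over all alternatives. Of the whole list, leaving out either pregnancy replicate 2 or puberty replicate 2 left 3 higher calls and 2 lower ones.

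Prolactin acts through its receptor, the kinase JAK2 and STAT5, and the SOCS proteins feed back on that route. All 20 listed genes were kept, 3 were higher (1 without puberty replicate 2), 5 lower (2 in the fit of the 4 libraries alone), and the median change was -0.33. Prlr, the prolactin receptor, had 39380 and 15215 scaled counts at pregnancy and 104892 and 125402 at puberty, which did not pass (log2 change -2.23, SE 0.75, adjusted p = 0.0844). Stat5a overlapped between the stages, at 4650 and 7269 against 4409 and 5760 (log2 change 0.21, SE 0.26, adjusted p = 0.693). Socs2 had 6860 and 3636 against 582 and 200 and rose by 3.87 (SE 0.46, adjusted p = 0.00017). Socs3 moved the other way, with 3805 and 2216 against 10511 and 12422, and fell by 1.98 (SE 0.24, adjusted p = 7.87e-05). Ptpn1, a phosphatase that acts on JAK2, had 2358 and 1402 against 7065 and 8276 and fell by 2.07 (SE 0.27, adjusted p = 0.000151).

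Cish, a SOCS family gene that is a textbook STAT5 target, had 1176 and 1392 scaled counts at pregnancy and 641 and 321 at puberty. Its log2 change was 1.49 (SE 0.30, adjusted p = 0.00346), lost without puberty replicate 2 (adjusted p = 0.0729) and in the fit of the 4 libraries alone (0.0812), with 0.000152 to 0.0812 over all alternatives. Elf5, the transcription factor of the alveolar fate, had 4329 and 11434 against 1005 and 445, and 3070 to 12758 in the other pregnancy cells. The change of Elf5 was 3.39 (SE 0.68, adjusted p = 0.00826), lost without pregnancy replicate 2 (0.081) or puberty replicate 2 (0.0826), with 1.57e-07 to 0.0826 over all alternatives.

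Milk protein genes had the highest median change of all lists. All 18 listed genes were kept, 4 of them through the pregnancy libraries alone, and 15 were higher and none lower, with a median change of 4.55. Csn2, the beta-casein gene, had 113910 and 249723 scaled counts at pregnancy and 77 and 3 at puberty (log2 change 13.22, SE 1.83, adjusted p = 0.00127). Csn1s1, an alpha casein gene, had 111865 and 284896 against 84 and 0 (log2 change 14.24, SE 1.85, adjusted p = 0.000907). Csn1s2a had 76757 and 184133 against 60 and 0 (log2 change 13.89, SE 2.19, adjusted p = 0.00269). In all of them pregnancy replicate 2 was higher than pregnancy replicate 1, and puberty replicate 1 higher than puberty replicate 2. Wap, the whey acidic protein gene, had 2504 and 3830 against 0 and 0, at least 940-fold higher against a bound of 3 reads over the puberty group (adjusted p = 1.24e-05).

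These milk gene levels were not a feature of ER+ cells alone. Csn2 had 253329 and 21279 scaled counts in pregnancy ER- cells and 97320 and 132154 in pregnancy basal cells. The milk protein sum was 387823 and 929279 in pregnancy ER+ cells, 926626 and 172112 in ER- cells and 332060 and 462973 in basal cells, so that the 3 populations overlapped. At puberty it was 16939 and 12057 in ER+ cells and 119453 and 152771 in ER- cells. The change of Csn2 did not differ by test between ER+ and ER- cells (difference 3.27, SE 2.59, adjusted p = 0.666). The glucose and lactose list, by contrast, had no call upward among 17 genes kept and 1 downward, with a median of 0.08. Lalba, the lactose synthase subunit that is itself a milk protein, had 294 and 637 against 376 and 166, which overlapped.

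The promoters of Csn1s1, Csn2, Csn1s2a and Cish are shown because these genes rose and carry the STAT5 motif TTCNNNGAA, printed in capitals. The casein genes Csn1s2b and Csn3 were also called higher and are not shown. Each window runs from 250 bases before to 50 bases after the RefSeq start in GRCm38.p6 and is written 5′ to 3′ on the strand of the gene. Csn1s1, Csn2 and Csn1s2a are neighbours on chromosome 5, at chr5:87665958-87666257 (plus), chr5:87699376-87699675 (minus) and chr5:87774200-87774499 (plus), with the motif at window bases 151, 158 and 271. Cish lies at chr9:107296409-107296708 (plus) and has 2 matches, at window bases 251 and 262. The matches of Csn1s2a and Cish thus lie past the 250 bases before the start.
Csn1s1: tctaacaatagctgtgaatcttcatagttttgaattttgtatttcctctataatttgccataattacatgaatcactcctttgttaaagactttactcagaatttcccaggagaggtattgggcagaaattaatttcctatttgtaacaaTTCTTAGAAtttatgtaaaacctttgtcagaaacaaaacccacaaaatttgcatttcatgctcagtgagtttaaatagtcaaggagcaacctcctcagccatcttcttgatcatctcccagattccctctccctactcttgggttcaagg
Csn2: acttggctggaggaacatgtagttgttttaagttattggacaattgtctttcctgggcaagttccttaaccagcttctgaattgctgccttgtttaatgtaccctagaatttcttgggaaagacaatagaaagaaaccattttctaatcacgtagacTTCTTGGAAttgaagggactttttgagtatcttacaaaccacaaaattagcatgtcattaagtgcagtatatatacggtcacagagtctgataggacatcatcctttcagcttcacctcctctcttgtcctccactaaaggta
Csn1s2a: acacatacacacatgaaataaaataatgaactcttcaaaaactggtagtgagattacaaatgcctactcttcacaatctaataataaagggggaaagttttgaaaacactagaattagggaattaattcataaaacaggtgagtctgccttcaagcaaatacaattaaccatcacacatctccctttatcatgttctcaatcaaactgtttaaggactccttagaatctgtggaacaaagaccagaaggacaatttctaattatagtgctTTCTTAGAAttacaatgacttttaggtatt
Cish: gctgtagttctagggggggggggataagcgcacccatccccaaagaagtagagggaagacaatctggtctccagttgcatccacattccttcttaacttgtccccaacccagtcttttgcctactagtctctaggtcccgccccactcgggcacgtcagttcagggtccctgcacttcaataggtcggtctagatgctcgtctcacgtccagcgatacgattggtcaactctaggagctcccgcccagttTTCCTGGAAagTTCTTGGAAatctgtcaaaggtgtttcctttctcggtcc

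The motif reads the same on both strands and overlaps neither of the other motifs searched in these windows. It was present in 8.3% of all 32851 RefSeq windows, in 6.45% of 1474 windows of genes called higher and in 6.58% of 1262 windows of genes called lower. Among the 156 windows of named genes 8.97% held it. Windows were found for 118 of the 166 genes chosen by the naming rule. The palindromic motifs of the progesterone and glucocorticoid receptors and of the estrogen receptor were present in 0.47% and 0.07% of all windows and in none of the 156 windows of named genes. A match describes letters in the window and is no evidence of binding.

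Genes of milk fat and lipid synthesis were higher in part. Of 26 listed names 25 were in the table and all of these were kept, 8 were higher, 2 lower, and the median change was 0.91. Plin2, which coats lipid droplets, had 6131 and 16523 scaled counts at pregnancy and 870 and 740 at puberty (log2 change 3.65, SE 0.58, adjusted p = 0.0021). Fabp3, a fatty acid carrier, had 1348 and 4963 against 6 and 3 (log2 change 8.93, SE 1.03, adjusted p = 9e-05). Pregnancy replicate 2 was the higher library in both. Without pregnancy replicate 2, and likewise without puberty replicate 2, 4 genes of the list were called higher and none lower, and without puberty replicate 1 none was lower. Among 24 genes of cholesterol synthesis 5 were higher and 1 lower, with a median of 0.54, and 3 were higher without pregnancy replicate 1 or either puberty library. Stard4, a sterol carrier, had 1051 and 966 against 258 and 163 and rose by 2.29 (SE 0.33, adjusted p = 0.000265). Mvd, mevalonate diphosphate decarboxylase, had 219 and 320 against 67 and 50 and rose by 2.17 (SE 0.42, adjusted p = 0.00269). The lower gene of that list, Sc5d (log2 change -0.64, adjusted p = 0.0368), lost its call in 7 alternatives. Leaving out any 1 of the 4 libraries was among them.

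Transport and secretion genes followed. Of 20 calcium, zinc and ion genes 19 were kept, 8 higher and 2 lower, with a median of 1.12, and 3 higher without pregnancy replicate 2 or 4 without puberty replicate 2. Neither lower call was kept without pregnancy replicate 2 or either puberty library. Kcnn4, a calcium-activated potassium channel, had 967 and 3304 scaled counts at pregnancy and 142 and 73 at puberty (log2 change 4.12, SE 0.66, adjusted p = 0.00185). Atp7b, a copper pump that loads copper into milk, had 7877 and 6252 against 0 and 3. That was 4462 reads against 1, a depth-adjusted ratio of 6450 with a counting interval of 1157 to 254801 (adjusted p = 0.00225). Atp7b also had 2026 and 2914 in pregnancy ER- cells. All 24 genes of endoplasmic reticulum folding and secretion were kept, 9 higher and 2 lower, with a median of 0.49. Creb3l1, a transcription factor of the secretory apparatus, had 621 and 921 against 136 and 213 and rose by 2.14 (SE 0.32, adjusted p = 0.00034). Sec61b, a subunit of the translocon, had 705 and 837 against 275 and 357 and rose by 1.29 (SE 0.25, adjusted p = 0.00255). Sel1l, which helps to clear misfolded proteins, had 3973 and 2874 against 6012 and 6158 and fell by 0.85 (SE 0.16, adjusted p = 0.00221), a call lost in the fit of the 4 libraries alone (0.0748, with 4.91e-09 to 0.0748 over all alternatives).

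Imprinted growth genes changed in both directions. Of 23 listed names 22 were in the table and 21 were kept, 4 higher and 2 lower, with a median of 0.49. H19, a maternally expressed non-coding RNA next to Igf2, had 7384 and 3933 scaled counts at pregnancy and 103 and 65 at puberty (log2 change 6.02, SE 0.72, adjusted p = 0.000126). It stood at 98 to 462 in the other pregnancy cells, so that both pregnancy ER+ libraries lay above all of them. Peg3, a paternally expressed zinc finger gene, had 16873 and 9526 against 1321 and 862 (log2 change 3.57, SE 0.30, adjusted p = 5.26e-06). Usp29, the neighbour of Peg3 and also paternally expressed, had 141 and 75 against 0 and 0, at least 32.1-fold higher (adjusted p = 0.00566). Igf2r, a receptor that clears IGF2, had 4908 and 3904 against 8076 and 7444 and fell by 0.82 (SE 0.14, adjusted p = 0.000882), a call lost in the fit of the 4 libraries alone (0.0576, with 5.16e-11 to 0.0576 over all alternatives). Phlda2, a maternally expressed growth inhibitor, had 7 and 7 against 115 and 114 and fell by 3.85 (SE 0.66, adjusted p = 0.00107). H19 and Igf2 share a locus on chromosome 7, as do Peg3 and Usp29, so that they are not separate loci.

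In the IGF axis, 17 of 18 genes were kept, 6 higher and 2 lower, with a median of 0.44. Pappa, a protease that frees IGF from its binding proteins, had 3742 and 1877 scaled counts at pregnancy and 92 and 13 at puberty (log2 change 6.20, SE 0.75, adjusted p = 0.000311). Igfals, the acid-labile subunit of the circulating IGF complex, had 1335 and 1822 against 33 and 24 (log2 change 5.74, SE 0.55, adjusted p = 1.5e-05). Stc2, a stanniocalcin that inhibits PAPPA, went the other way, with 390 and 265 against 24109 and 29721, and fell by 6.38 (SE 0.96, adjusted p = 0.00171). The protease gene was thus higher in the libraries in which its inhibitor gene was lower. Stc2 stood at 142 to 238 in the other pregnancy cells and at 621 to 4720 in the other puberty cells.

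EGF ligands and ERBB receptors changed in both directions. Of 17 genes 16 were kept, 3 higher and 4 lower, with a median of -0.52. Erbb4, a neuregulin receptor that can activate STAT5, had 7643 and 3920 scaled counts at pregnancy and 273 and 171 at puberty (log2 change 4.66, SE 0.39, adjusted p = 5.26e-06). Egfr had 2127 and 2241 against 587 and 986 (log2 change 1.52, SE 0.23, adjusted p = 0.000351). Nrg4, a neuregulin, had 107 and 46 against 1192 and 1050 and fell by 3.97 (SE 0.53). Epgn, the epigen gene, had 25 and 26 against 454 and 184 and fell by 3.45 (SE 0.67). In these libraries the called receptor genes were thus the higher ones, and 4 ligand genes, with Hbegf and Tgfa, the lower ones, while Nrg1, another ligand gene, rose (593 and 262 against 84 and 24, log2 change 3.10, SE 0.58, adjusted p = 0.00391). The Tgfa call (adjusted p = 0.0203) was lost without pregnancy replicate 2, without either puberty library and in 2 other alternatives, with 0.00292 to 0.279 over all of them. Nrg1 lost its call in the fit of the 4 libraries alone (adjusted p = 0.0772, with 3.55e-08 to 0.0772 over all alternatives).

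The WNT list had 23 of 30 genes kept, 7 higher and 4 lower, with a median of 0.33. Lgr4, a receptor for R-spondins, had 2271 and 5144 scaled counts at pregnancy and 788 and 660 at puberty (log2 change 2.24, SE 0.36, adjusted p = 0.00125). Wnt5b had 512 and 1240 against 214 and 109 (log2 change 2.38, SE 0.40, adjusted p = 0.00131, lost in the fit of the 4 libraries alone). Lrp5, a WNT coreceptor, had 3240 and 2936 against 6305 and 7692 and fell by 1.17 (SE 0.16, adjusted p = 0.000151). With Rspo1 and Wnt5a given above, the ligand, receptor and coreceptor genes of this pathway did not share a direction. The count of higher genes was 4 without pregnancy replicate 2 and 3 without puberty replicate 2. In the Notch pathway none of 17 genes was higher and 2 were lower, with a median of 0.04, while 3 were higher without puberty replicate 1 and 1 without pregnancy replicate 1. A single lower call was left without pregnancy replicate 1 or either puberty library. Hey1, a Notch target, had 131 and 65 against 515 and 334 and fell by 2.16 (SE 0.33, adjusted p = 0.000441), a call lost in the fit of the 4 libraries alone.

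Cell division genes were higher in level but mostly short of the test. Mki67, the proliferation marker Ki-67, had 11348 and 14912 scaled counts at pregnancy and 1798 and 939 at puberty (log2 change 3.32, SE 1.12, adjusted p = 0.0872). All 35 genes of cell cycle and DNA replication were kept, 5 were called higher (Cdc6, Mcm5, Mcm7, Pcna and E2f1) and 1 lower, with a median of 2.44. Mcm5, a subunit of the replicative helicase, had 1354 and 1579 against 241 and 166 (log2 change 2.86, SE 0.80, adjusted p = 0.0398, lost when any 1 of the 4 libraries was left out). Of the higher calls none was left without pregnancy replicate 1, pregnancy replicate 2 or puberty replicate 2 and 1 without puberty replicate 1, while edgeR called 13, and DESeq2 and the fit of the 4 libraries alone 21 each. Mki67 levels were also higher at pregnancy in ER- cells (20813 and 20415 against 4672 and 1641) and in basal cells (13861 and 12206 against 3909 and 2154), with no difference in change from ER- cells that passed the test (0.43, SE 1.59, adjusted p = 0.953). Ccnd1, the cyclin D1 gene, had 2289 and 3310 against 3625 and 3913 in ER+ cells and did not pass (log2 change -0.45, SE 0.40, adjusted p = 0.557).

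Genes of basal cells and of the matrix were higher in the pregnancy ER+ libraries. All 18 basal markers were kept, 12 were higher and none lower, with a median of 2.83. Krt14, the basal keratin, had 2227 and 1663 scaled counts at pregnancy and 366 and 101 at puberty (log2 change 3.31, SE 0.62, adjusted p = 0.00511), while basal cells of either stage had 17060 to 26552. In ER- cells the log2 change of Krt14 was 3.35. Higher basal markers numbered 6 without pregnancy replicate 1, 6 without pregnancy replicate 2, 5 without puberty replicate 2 and 2 in the fit of the 4 libraries alone. All 26 matrix genes were kept, 12 higher and 1 lower, with a median of 1.12, and 7 higher without pregnancy replicate 1 or puberty replicate 2. Lama1, a laminin chain, had 2888 and 2513 against 340 and 83 (log2 change 3.99, SE 0.59, adjusted p = 0.00119), and 28406 and 26570 in pregnancy basal cells. Tnc, tenascin C, had 986 and 3155 against 199 and 114 (log2 change 3.54, SE 0.47, adjusted p = 0.000271). The luminal keratins Krt8 and Krt18 were lower in level without passing the test (log2 changes -0.77, adjusted p = 0.0963, and -1.07, adjusted p = 0.106).

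**Figure D4:**
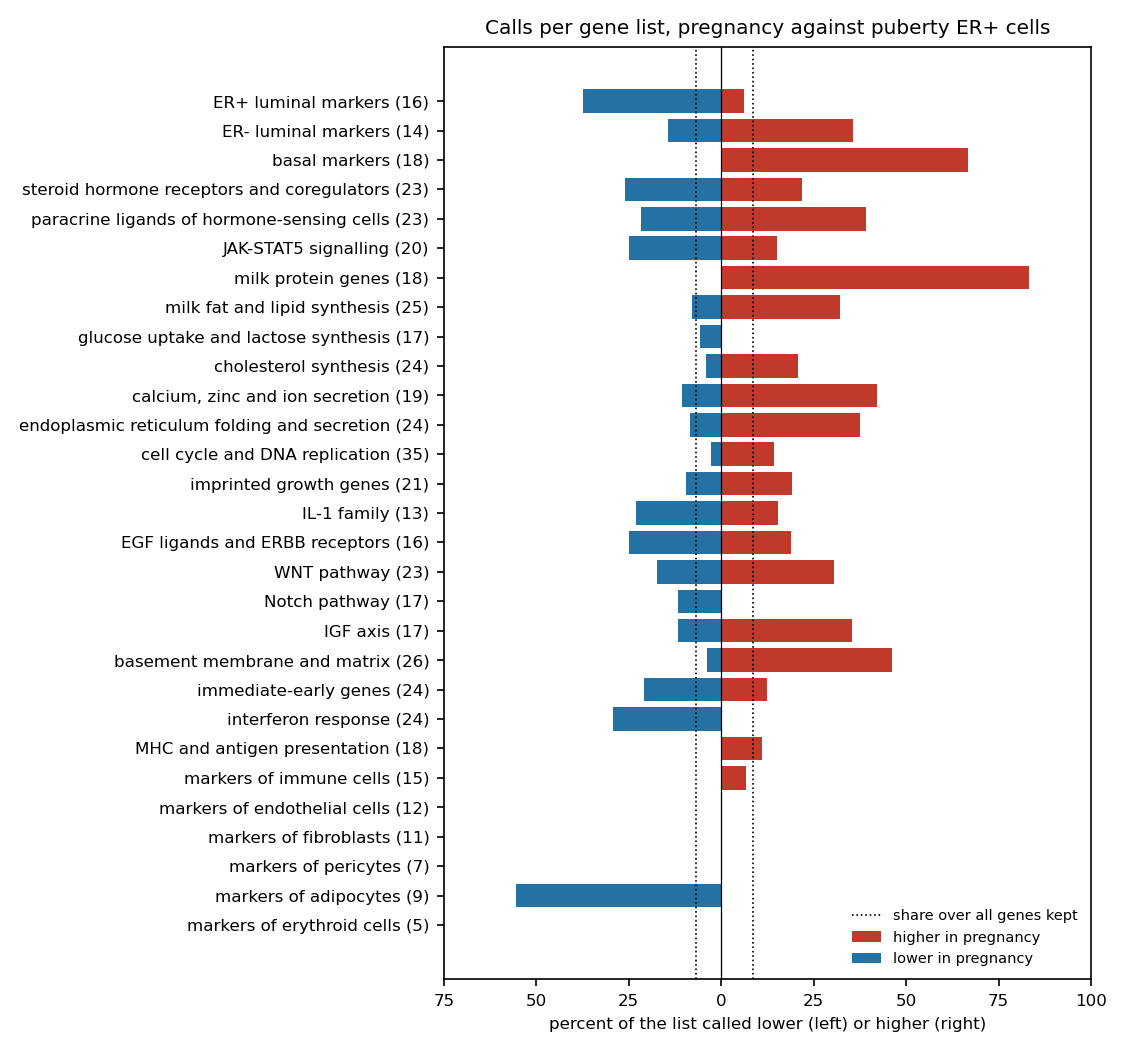
Percent of each list's kept genes (number in parentheses) called higher at pregnancy, to the right, or lower, to the left, in ER+ cells, with dotted lines at the shares over all 18509 genes kept (8.66% and 6.81%). Milk protein genes (15 of 18 higher) and basal markers (12 of 18 higher) reach furthest to the right, and markers of adipocytes (5 of 9 lower) furthest to the left.

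In the fit of the 4 libraries alone, several list counts moved by more than 1.5 times. Higher calls became 5 for the ligands, 3 for the steroid receptor, WNT and IGF lists, 4 for ion transport, 5 for the matrix and 1 for immediate-early genes. Lower calls became 3 for the steroid receptor list, 1 for imprinted growth genes, the IGF axis, milk fat synthesis and immediate-early genes, and none for the Notch pathway and endoplasmic reticulum folding. Both IL-1 family rises were lost there as well. The milk protein count stayed at 15 and the interferon count at 7.

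The alarmin gene Il33 was among the largest falls in ER+ cells. It encodes a cytokine of the IL-1 family that is held in the nucleus and released on damage (chr19:29925114-29960718, plus strand of GRCm38). Il33 had 38 and 36 scaled counts at pregnancy and 8805 and 12916 at puberty, and fell by 8.13 (SE 0.62, adjusted p = 1.24e-05). Puberty ER- and basal cells held 755 to 2936, so that both puberty ER+ libraries lay above them, and pregnancy ER- and basal cells held 11 to 89. Il1r1, the interleukin 1 receptor, had 696 and 343 against 1996 and 2201 and fell by 2.10 (SE 0.28, adjusted p = 0.00018). Of 20 listed names of the IL-1 family 17 were in the table, and 13 genes were kept, 2 higher and 3 lower, with a median of -0.44. The rises of Il1rn and Il1rap lost their call without pregnancy replicate 2 or puberty replicate 2. That of Il1rn was also lost without pregnancy replicate 1. Of the 3 falls, that of Il18r1 (adjusted p = 0.0344) was lost when any 1 of the 4 libraries was left out and in 4 other alternatives, with 0.00108 to 0.207 over all.

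Other named genes also fell. Ly6d, a surface protein, had 22 and 4 scaled counts at pregnancy and 5672 and 8783 at puberty and fell by 9.36 (SE 1.21, adjusted p = 0.000635). Muc16, the mucin that carries the CA125 antigen, had 4 and 4 against 3094 and 5165, which is 2 reads against 3620 and a puberty to pregnancy ratio of 1252 with a counting interval of 346 to 10344. Its adjusted p was 0.00779, lost without pregnancy replicate 2 (0.0572) or puberty replicate 2 (0.0553), with 3.74e-06 to 0.0572 over all alternatives. Slco2a1, a prostaglandin transporter, had 923 and 646 against 22520 and 28014 and fell by 5.02 (SE 0.42, adjusted p = 2.69e-05). Padi2, an enzyme that converts arginine to citrulline in proteins, had 72 and 123 against 5106 and 6621 and fell by 5.93 (SE 0.47, adjusted p = 9.53e-06). Sytl2, a vesicle docking protein, had 50 and 59 against 2057 and 1754 and fell by 5.10 (SE 0.66, adjusted p = 0.000257). Krt6a, a keratin with close copies that may share its reads, had 16 and 0 against 1014 and 776 and fell by 7.75 (SE 1.00, adjusted p = 0.000151). Of the 1261 lower genes, 749 (59.4%) had both puberty ER+ libraries above all 4 puberty ER- and basal libraries, beside 19.5% of all genes kept, and 382 had a higher mean in puberty ER- or basal cells. The lower call and this position share the puberty ER+ values, so that a larger share was favoured in advance.

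Further rises were in genes with little signal in puberty ER+ cells and in the other pregnancy cells. Adult cells were not compared for these genes. Esrrb, an orphan nuclear receptor, had 3717 and 1705 scaled counts at pregnancy and 4 and 6 at puberty (log2 change 8.73, SE 0.65, adjusted p = 1.36e-06), with 83 to 151 in the other pregnancy cells. Tmprss6, a membrane serine protease that acts on iron balance in the liver, had 8653 and 6571 against 33 and 26 (log2 change 7.96, SE 0.44, adjusted p = 1.85e-07), with 155 to 391 in the other pregnancy cells. Pnmt, the enzyme that makes adrenaline from noradrenaline, had 1011 and 1179 against 4 and 0, and 20 to 34 in the other pregnancy cells (adjusted p = 7.59e-05). Kl, the klotho gene, had 113 and 139 against 0 and 0, at least 37.4-fold higher (adjusted p = 0.000869), with 0 to 8 in the other pregnancy cells. Of the 1603 higher genes, 219 (13.7%) had both pregnancy ER+ libraries above all 4 pregnancy ER- and basal libraries, beside 9.01% of all genes kept, and 1263 had a higher mean in pregnancy ER- or basal cells. The higher call and this position share the pregnancy ER+ values, so that a larger share was favoured in advance. Of the 219, 201 were higher in pregnancy replicate 1 than in replicate 2. Among the other 1384 higher genes 501 were, and among all genes kept 61.2%.

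Interferon response genes lay lower. All 24 were kept, none was higher and 7 were lower, with a median of -0.77, and the count was 3 to 5 when any 1 of the 4 libraries was left out (3 without pregnancy replicate 1 and 4 without either puberty library). Usp18, which damps interferon signalling, had 119 and 94 scaled counts at pregnancy and 500 and 505 at puberty and fell by 2.24 (SE 0.32, adjusted p = 0.0003). In ER- cells Usp18 had 34 and 31 against 382 and 557. Among 18 genes of antigen presentation 2 were higher, H2-Ab1 and H2-Eb1, and none lower, with a median of -0.26. Both calls were lost when any 1 of the 4 libraries was left out. Immediate-early genes, which respond within minutes to stimuli and to handling of tissue, had 3 of 24 higher and 5 lower, with a median of -0.22. Egr3, one of them, had 693 and 821 against 103 and 88 and rose by 2.97 (SE 0.31, adjusted p = 2.38e-05). The higher calls of that list were 1 without pregnancy replicate 2 or puberty replicate 2, and the lower calls 1 without pregnancy replicate 1, 3 without pregnancy replicate 2 and 1 without puberty replicate 2.

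Markers of cells outside the epithelium were measured too. Of 10 adipocyte markers 9 were kept, 3 of them through the puberty libraries alone, none was higher and 5 were lower, with a median of -4.71. Their sum was 3328 and 2347 at pregnancy and 15953 and 3341 at puberty, so that puberty replicate 1 stood above the rest and puberty replicate 2 at the level of pregnancy replicate 1. Adipoq, the adiponectin gene, had 0 and 0 scaled counts at pregnancy and 921 and 78 at puberty, at least 105-fold lower (adjusted p = 0.00023), and likewise 0 and 8 against 1380 and 230 in ER- cells. Cidec, a lipid droplet protein of fat cells, had 0 and 0 against 1134 and 182, at least 138-fold lower (adjusted p = 0.000415). The lower adipocyte calls numbered 2 without pregnancy replicate 2 and 3 without puberty replicate 1. Of 15 immune markers kept, 1 was higher (Itgax, at 47 and 94 against 0 and 3) and none lower, and the sums were 2010 and 1593 against 1047 and 615. No marker of endothelial cells (12 kept), fibroblasts (11), pericytes (7) or red blood cells (5) was called by limma. At an unadjusted p under 0.05 there was 1 endothelial and 1 fibroblast marker, edgeR called 1 endothelial marker lower, DESeq2 called 1 endothelial marker lower and 1 fibroblast marker higher, and without puberty replicate 1 limma called 2 endothelial markers higher. Fibroblast marker sums were 82559 and 40203 against 18453 and 62165, and endothelial sums 12144 and 7291 against 18101 and 3603, which overlapped. The part of these other cells in the results was not tested.

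The change from puberty to pregnancy was compared with that in the other sorted cells by a test of the difference. In 514 genes (2.78%) the change in ER+ cells differed from that in ER- luminal cells, 325 more positive in ER+ cells (1.76%) and 189 more negative (1.02%). Against basal cells 363 genes differed (1.96%), 262 more positive (1.42%) and 101 more negative (0.546%), a split of 241 and 154 after quantile normalization and of 239 and 157 with TMM factors. The count against ER- cells was 203 without pregnancy ER- replicate 2, the library that stood apart, 336 when pregnancy ER+ replicate 2 was left out and 159 when puberty ER+ replicate 2 was. Against basal cells it was 233 when pregnancy ER+ replicate 2 was left out, and 577 and 128 when puberty ER+ replicates 1 and 2 were, in turn. Of the genes called in ER+ cells, 208 of the higher and 150 of the lower ones differed from ER- cells, and 641 of the higher and 492 of the lower ones were also called in the same direction there. In basal cells 108 of the higher and 163 of the lower ones were. The shares of all genes kept that were called in ER- and in basal cells are not given here. These counts therefore do not show more or less overlap than among all genes.

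Erbb4 was among the genes whose change differed from that in ER- cells in every alternative, none of which left out a puberty ER- library. It rose by 4.66 in ER+ cells, and in ER- cells it had 1128 and 1401 scaled counts at pregnancy and 1941 and 2047 at puberty, a difference in log2 change of 5.32 (SE 0.54, adjusted p = 0.000293). Peg3 in ER- cells had 2547 and 2708 against 2648 and 1749, a difference of 3.28 (SE 0.42, adjusted p = 0.00102). Wnt5a had 239 and 233 against 408 and 486 there, a difference of -3.16 (SE 0.53, adjusted p = 0.00707). Hey1 fell in both luminal populations, but in ER- cells it had 196 and 158 against 5111 and 6613, a difference of 2.88 (SE 0.46, adjusted p = 0.00413). Slco2a1 had 1033 and 962 against 2998 and 1835 in ER- cells, a difference of -3.79 (SE 0.60, adjusted p = 0.00781). In these 5 genes the size or the sign of the change thus set the luminal populations apart.

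Tmprss6 was called higher in ER- cells as well (344 and 391 against 17 and 11). Its difference from ER- cells was 3.31 (SE 0.62, adjusted p = 0.0105), lost without puberty ER+ replicate 2 (0.0563), with 7.72e-05 to 0.0563 over all alternatives. Pappa, by contrast, was high in basal cells at both stages, with 3086 and 2378 scaled counts at pregnancy and 5327 and 5012 at puberty, and its change in ER+ cells differed from that in basal cells by 7.13 (SE 1.06, adjusted p = 0.00816). Nalcn, a sodium leak channel, had 1447 and 562 against 14 and 0 in ER+ cells, and its change differed from that in basal cells by 9.25 (SE 1.25, adjusted p = 0.00238). The differences of Pappa and Nalcn from basal cells were called in every alternative, none of which left out a puberty or pregnancy basal library.

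For H19, Tnfsf11 and Il33 the difference between populations was less certain. For H19 it was 4.14 from ER- cells (SE 1.01, adjusted p = 0.0506), short of the test, and 4.35 from basal cells (SE 1.01, adjusted p = 0.0498), a call lost in 12 alternatives, which reached 0.209 without puberty ER+ replicate 2. Tnfsf11 in ER- cells had 286 and 233 against 7 and 0, and the difference of 5.18 (SE 3.01) did not pass (adjusted p = 0.513). Il33 had a difference of -2.31 from ER- cells (SE 0.87), which did not pass either (adjusted p = 0.24). A difference that misses the threshold does not show that the populations changed alike.

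**Figure D5:**
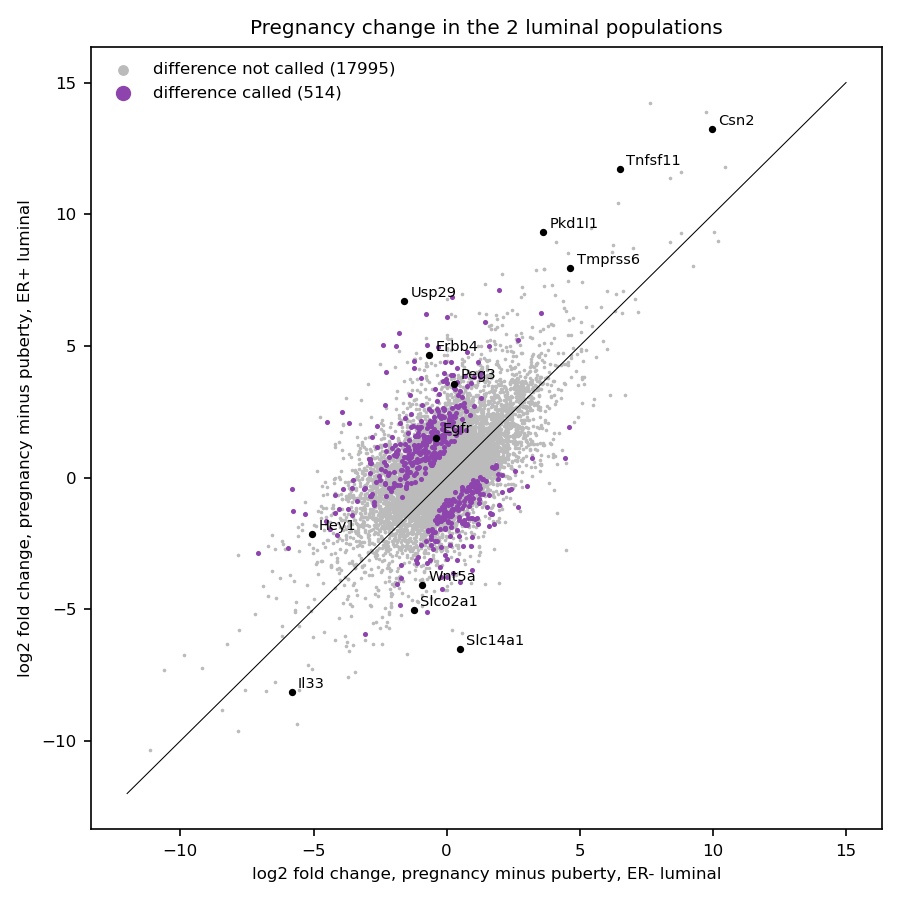
Each point is 1 of the 18509 genes kept, with the log2 fold change from puberty to pregnancy in ER- luminal cells on the horizontal axis and in ER+ luminal cells on the vertical axis, and a line at equal change. The 514 genes whose difference was called are purple, and black points are named genes, with Erbb4 and Peg3 above the line and Wnt5a below it.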

How the data were processed

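The deposited table gives, for 18 RNA-seq libraries, a whole-number signal per gene and library. Per the submitters' processing notes, reads were handled with STAR, Picard and HTSeq on GRCm38/mm10, with versions not given in the sources used here; strand use in counting is not given either, so reads of overlapping or antisense genes and close copies may be shared. Deposited totals were near 20000000 in every library. The reads behind the values were inferred from the step between low values and rest on rounding assumed here. Where a gene ID was repeated (790 of 46868 lines, 179 IDs), the line with the highest sum was kept, which left 46257 genes.

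The main test was limma 3.58.1 (R 4.3.3; trend and robust options) on log2(signal + 1) with 1 mean per group over all 18 libraries, 2-sided, for 22315 genes with 10 or more in at least 2 libraries, with Benjamini-Hochberg adjustment over all of them and a threshold of 0.05. The added 1 shrinks the fold change of low genes. The fit averages logs, so that a replicate with no reads beside one with reads can also enlarge it. The log2 change of Csn1s1 ran from 11.04 to 17.45 over the alternatives. As alternatives, the inferred reads were tested with edgeR 4.0.16 and with DESeq2 1.42.0. Of the tests, only the limma contrast of pregnancy against puberty ER+ cells was also run on simulated data. Adult libraries enter through the estimate of spread and through the filter that sets which genes are tested. For a gene with no read in a stage, the bound is 3 reads over the group.

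The genes and lists were chosen with earlier results of these data known. Named genes were 22 chosen by role, the 15 largest rises and falls without overlap and with the higher group mean above 143.5, the 10 largest with a group mean of 1000 or more, up to 4 called genes per direction and list, the 10 largest above the other cells, and the 5 largest differences per direction, passing over predicted, immunoglobulin, T cell receptor, mitochondrial and ribosomal genes. The text prints some of these 166 genes, and some results are not reported here. Lalba is outside the rule and was chosen after its values were seen. Positions are from GENCODE vM21 and promoter windows from RefSeq.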

Additional observations from a re-analysis of the deposited data

Results flagged for a closer look

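Each value here was singled out because the change from puberty to pregnancy in ER+ cells differed, by a test of that difference (limma, adjusted p under 0.05), from the change in another sorted population. Values are log2 changes in ER+ cells minus those in the other cells, a positive value meaning a more positive change in ER+ cells.

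Against ER- luminal cells 514 genes differed. Among named genes more positive in ER+ cells were Peg3 at 3.28, Usp29 at 8.28, Erbb4 at 5.32, Egfr at 1.92 and Wnt5b at 2.64. Tmprss6 stood at 3.31, Pkd1l1 at 5.70, Onecut2 at 7.0, Slc13a1 at 6.66, Dapl1 at 6.31, Rnf182 at 6.09, Hey1 at 2.88, Cited2 at 1.69 and Il1rap at 1.69. More negative in ER+ cells were Wnt5a at -3.16, Nr3c2 at -1.99, Fgf1 at -1.70, Ptpn1 at -1.62, Sc5d at -1.17, Slc14a1 at -7.01, Fgf13 at -4.44, Chsy3 at -4.37 and Amd2 at -4.04. Of 27 named genes called here, 8 were called in every alternative, among them Peg3, Erbb4, Wnt5a, Hey1, Fgf13, Slco2a1 and Fam84a.

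Against basal cells 363 genes differed. More positive in ER+ cells were H19 at 4.35, Peg3 at 4.91, Usp29 at 9.61, Socs2 at 3.56, Erbb4 at 2.37, Egfr at 1.69, Tfap2c at 1.86, Cited2 at 1.68, Ern1 at 1.30, Oxtr at 4.32, Dkk3 at 5.02, Lgr4 at 2.85 and Pappa at 7.13. The same held for Tnc at 4.28, Lamb3 at 2.27, Egr3 at 1.98, Itgax at 4.46, Tmprss6 at 4.52, Pkd1l1 at 5.68, Nalcn at 9.25, Slpi at 9.23, Onecut2 at 8.71 and Kl at 7.98. More negative were Wnt5a at -2.65, Nr3c2 at -2.28, Lrp5 at -1.04, Phlda2 at -3.88, Slc14a1 at -5.98, Slco2a1 at -4.91, Fam84a at -4.43, Enho at -4.37 and Padi2 at -4.19. Of 35 named genes called here, 11 were called in every alternative, Peg3, Pappa, Tnc, Lamb3, Tmprss6, Onecut2, Nalcn, Slpi, Slco2a1, Fam84a and Padi2, over 20 alternatives each except Onecut2, which had a value in 18. No named difference called in either set changed sign in an alternative.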

How the results depend on the processing

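Over 21 alternatives, 91 of the 156 named genes called kept their call in each one in which they had a value, 65 lost it in at least 1, and none of the 156 changed direction. The 2864 calls became 1431 in a fit of the 4 compared libraries alone (which cannot give the differences from other cells), 3667 with edgeR and 4060 with DESeq2, and ranged from 1346 to 2884 when 1 library was left out. Under TMM factors the calls were 1485 higher and 1705 lower. Without the 4 adult luminal libraries the calls numbered 3186, and without all 6 adult libraries 3622. The fit of the 4 compared libraries alone lost 39 of the 156 named calls, while it kept 1231 of all 2864 calls. Named genes were picked largely by the size of their change and do not stand for all calls. The 514 differences from ER- cells became 153 without trend and robust options and 1195 with DESeq2, with a range of 159 to 715 when 1 library was left out. The 363 differences from basal cells became 112 without those options, 653 with array weights, 551 with edgeR and 934 with DESeq2, with a range of 128 to 577. Only the 4 compared libraries and pregnancy ER- replicate 2 were left out 1 at a time. No alternative left out a puberty ER- library, pregnancy ER- replicate 1 or a puberty or pregnancy basal library. Leaving out pregnancy ER- replicate 2 was added after seeing the data. Wnt4, not called, ranged from -0.71 without pregnancy ER+ replicate 1 to 0.38 without the other pregnancy ER+ library, and was 0.06 without puberty ER+ replicate 2. Stat5a, not called, ranged from 0.53 to -0.12 for the same pregnancy libraries. With the replicate block the calls were 3097, with 592 differences from ER- cells and 381 from basal cells, and no named call of the ER+ change was lost. Deviations of same-numbered libraries correlated at 0.051 between pregnancy and puberty ER+ cells and at 0.269 between puberty ER- and ER+ cells. With 2 libraries per group and no label that says what a number marks, the numbers were not taken to pair the libraries. With 2 libraries per group and 6146617 to 10407908 reads in those compared, changes of genes near 3 reads may have been missed, which was not tested.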
